A study of Canis lupus familiaris with 6 samples.

Results

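The genes of S phase and DNA replication described here are 39 protein-coding genes chosen by symbol, from the loading of the replicative helicase to the E2F factors that drive entry into S phase. All 39 were found among the 41401 gene symbols of the deposited tables, and all 39 reached a mean of 1 FPKM over the libraries, the level from which genes were tested (12125 genes in all). FPKM divides a gene's fragments by its transcript length and by the fragments mapped in the library, so levels of different genes can be set side by side.

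The cells were MDCK, an established epithelial line from dog kidney, used here in work on cell death after a loss of intracellular magnesium. PRL1 siRNA or control siRNA was given to each of 3 lines, namely the mutant clones D7 and F22, both PRL2-/-; PRL1+/-, and wild-type cells. Each combination gave 1 library, 6 in all, made from RNA taken 18 h after the second of 2 rounds of transfection. PRL1 and PRL2 are phosphatases that bind CNNM magnesium transporters. D7 and F22 are single clones, so a difference between a clone and wild type may belong to that clone, and nothing in the labels says that the libraries of a line came from separate cultures. P-values therefore measure only the spread between these libraries.

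Before S phase, the origin recognition complex, CDC6 and CDT1 load the MCM2 to MCM7 helicase onto origins, a step called licensing. CDC45 and the GINS complex then turn the loaded helicase on, polymerases and their clamp follow behind it, and ribonucleotide reductase and thymidylate synthase supply the nucleotides. Most of these genes are transcribed in late G1 and S phase by E2F factors, which cyclin D and cyclin E kinases release from the retinoblastoma proteins. In a bulk sample, fewer cells in S phase and less transcript in each such cell cannot be told apart.

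The siRNA target was lower in every treated library. PTP4A1, which encodes PRL1, was at 37.8, 37.8 and 33.1 FPKM after PRL1 siRNA in D7, F22 and wild type, against 61.7, 69.9 and 63.5 FPKM after control siRNA. The log2 fold change was -0.83 ± 0.05 (SE, n = 3 lines, limma with the line as a term, adjusted p = 0.00127). Under control siRNA PTP4A1 did not separate the clones from wild type (log2 difference 0.05 ± 0.10, adjusted p = 0.873, limma, 4 groups). PTP4A2, which encodes PRL2, was at 80.4 and 56.7 FPKM in D7 and F22 against 72.7 FPKM in wild type under control siRNA. Transcript levels therefore did not show the mutant genotypes, and how the alleles were disrupted is not given in the labels. PTP4A2 also fell after PRL1 siRNA, by 0.25 ± 0.04 on the log2 scale (adjusted p = 0.00572). Between 22961 and 23964 symbols were above 0 in a library, and depth relative to the wild-type control library lay between 0.768 and 0.917 in the other 5. The treated library had the lower estimate in every line: 0.768 against 0.853 in D7, 0.868 against 0.917 in F22 and 0.860 against 1 in wild type. These estimates rest on the commonest ratio among genes under 0.1 FPKM, at which 9.24% to 10.8% of them lay. All 7 kidney epithelial markers reached a mean of 1 FPKM, with a summed level of 1361 to 2032 FPKM. The 4 fibroblast markers together did not exceed 0.0725 FPKM, the 4 endothelial markers did not exceed 1.25 FPKM, and the leukocyte markers PTPRC and CD3E were listed at 0 in every library.

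PRL1 knockdown lowered most replication genes in all 3 lines by modest amounts. Of the 39 members, 28 fell, 0 rose and 11 did not pass (limma on log2(FPKM + 1), line and treatment as terms, adjusted p under 0.05 over 12125 genes). Over all genes tested, 21.7% were called lower and 17.6% higher, and among genes of at least 5 FPKM 27% were called lower. The median log2 fold change was -0.21 over the members, with values between -0.89 for CDC6 and 0.10 for TK1, against a median of -0.01 over all genes. Differences were computed within each line, which compares a treated library with the control library of the same cells.

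The members' calls rested on comparing within lines. Without the line as a term (no replicate block) 1 of the 39 was called lower, CDC6 (2.19% of all genes were called lower in that fit). Without either D7 library the count of members that fell was 12, and without an F22 library it was 9 or 10. Of all 12125 genes, 971 or 980 were called lower without a D7 library, and 1331 or 1334 without an F22 library. Leaving out either library of a line removes that line from the comparison. Both such fits then compare the same remaining lines and are not separate support. MCM4, ORC6, CDC6, MCM10, UHRF1, RRM1 and E2F8 were called in each of the 6 fits that left out 1 library. How many of all genes were called in each of these fits was not counted.

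**Figure D1:**
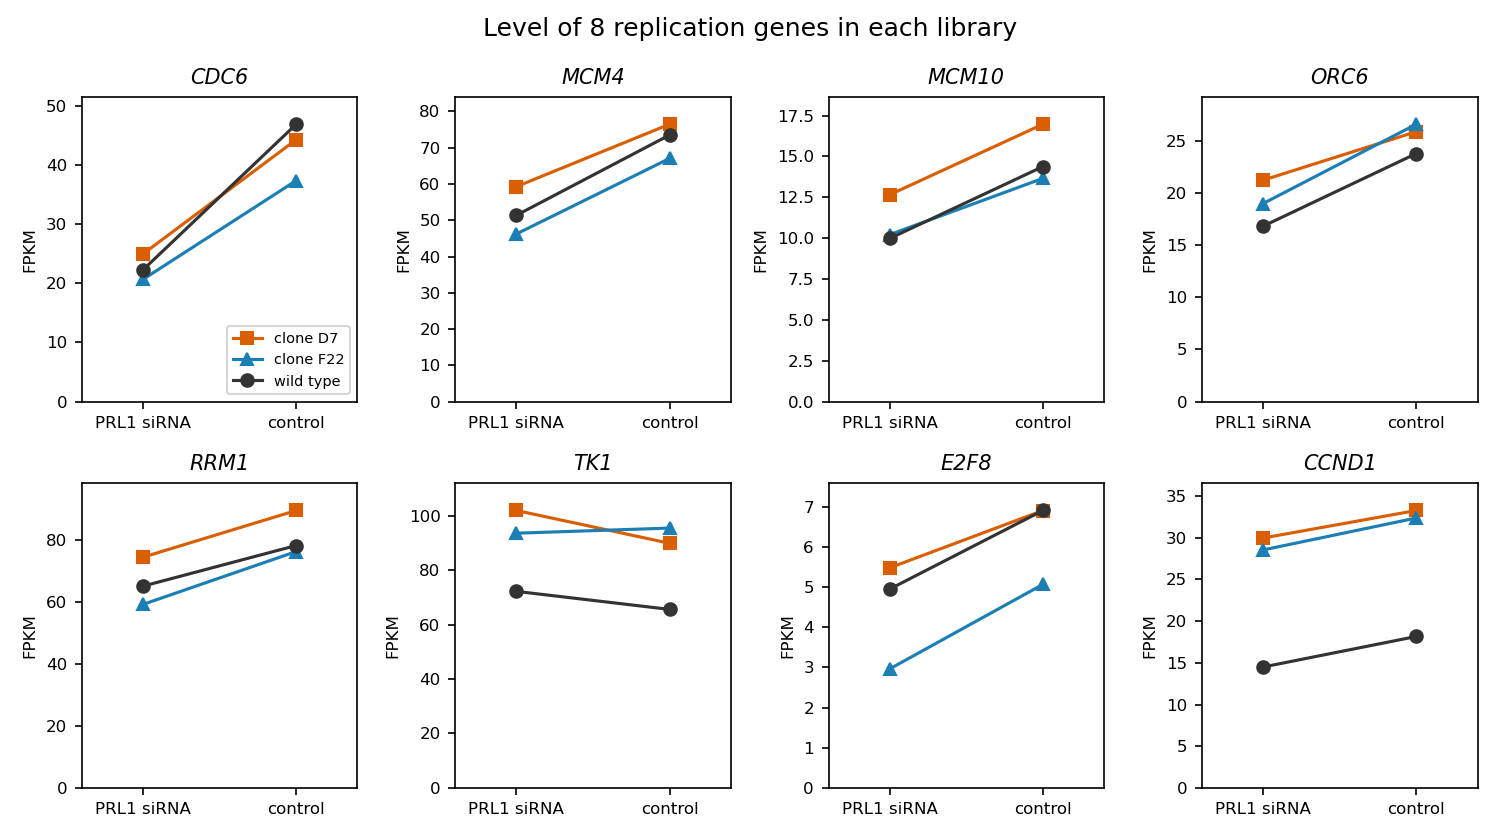
Level in FPKM (vertical axis, from 0) of 8 members after PRL1 siRNA (left) and control siRNA (right), 1 point per library, with lines joining the libraries of a cell line. CDC6 was between 20.6 and 24.9 FPKM in treated libraries against 37.3 to 46.8 FPKM in control libraries, while TK1 was at 72.2 to 102 FPKM against 65.6 to 95.4 FPKM.

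Among licensing genes, CDC6 moved most. CDC6, the ATPase that helps to load the helicase at origins, was at 24.9, 20.6 and 22.3 FPKM after PRL1 siRNA in D7, F22 and wild type, against 44.2, 37.3 and 46.8 FPKM after control siRNA. The 3 treated libraries all lay below the 3 control libraries, and the treated level was 56.4%, 55.3% and 47.5% of the control level of its line. CDC6 fell by 0.89 ± 0.06 on the log2 scale (SE, n = 3 lines, limma adjusted p = 0.00127, and 0.0192 without the line). This was the 58th lowest fold change of the 12125 genes, close to that of PTP4A1 at rank 67.

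All 6 subunits of the MCM2 to MCM7 helicase fell, MCM4 by most, where 21.7% of all genes tested were called lower. MCM4 was at 59.3, 46.2 and 51.4 FPKM after PRL1 siRNA in D7, F22 and wild type, against 76.5, 67.0 and 73.5 FPKM after control siRNA, with no overlap between the treatments. Its log2 fold change was -0.47 ± 0.05 (SE, limma adjusted p = 0.00205). The other 5 subunits had log2 fold changes from -0.27 for MCM2 to -0.18 for MCM5, and their treated and control libraries overlapped. Within D7 these 5 subunits had log2 differences of -0.20 to -0.08, while MCM4 had -0.36. MCM6 had the highest level of the complex, at a mean of 86.2 FPKM over all libraries, and MCM2 the lowest, at 26.4 FPKM, so the transcripts of this equimolar complex were not equal in level before or after treatment.

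Of the origin recognition subunits, ORC6 fell more than ORC1. ORC6 was at 21.2, 19.0 and 16.8 FPKM after PRL1 siRNA in D7, F22 and wild type, against 25.9, 26.6 and 23.8 FPKM after control siRNA, and the treatments did not overlap. The log2 fold change was -0.40 ± 0.05 (SE, limma adjusted p = 0.00432). ORC1, the subunit whose protein cycles with the G1 phase in human cells, was at 11.03, 8.89 and 9.17 FPKM against 11.5, 11.2 and 10.9 FPKM, with a log2 fold change of -0.20 ± 0.06 (adjusted p = 0.0478). The ORC1 groups overlapped, because the treated D7 library lay at the level of the controls.

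The other licensing factors did not pass. CDT1, the partner of CDC6 in loading the helicase, was at 17.9, 13.3 and 16.4 FPKM after PRL1 siRNA in D7, F22 and wild type, against 18.6, 16.2 and 16.5 FPKM after control siRNA. Its log2 fold change was -0.11, with an interval of -0.26 to 0.04 (95%, limma adjusted p = 0.197). F22 was the line in which CDT1 differed, at 81.8% of control, while D7 and wild type were at 96.4% and 99.2%. GMNN, which encodes the CDT1 inhibitor geminin, was at 37.9, 35.4 and 35.6 FPKM against 40.1, 41.0 and 38.3 FPKM (log2 fold change -0.13 ± 0.04, adjusted p = 0.0565). The GMNN libraries did not overlap between treatments, though the difference was small and was not called. In all, 9 of 11 licensing genes fell, with a median of -0.22, where 21.7% of all genes tested were called lower.

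**Figure D2:**
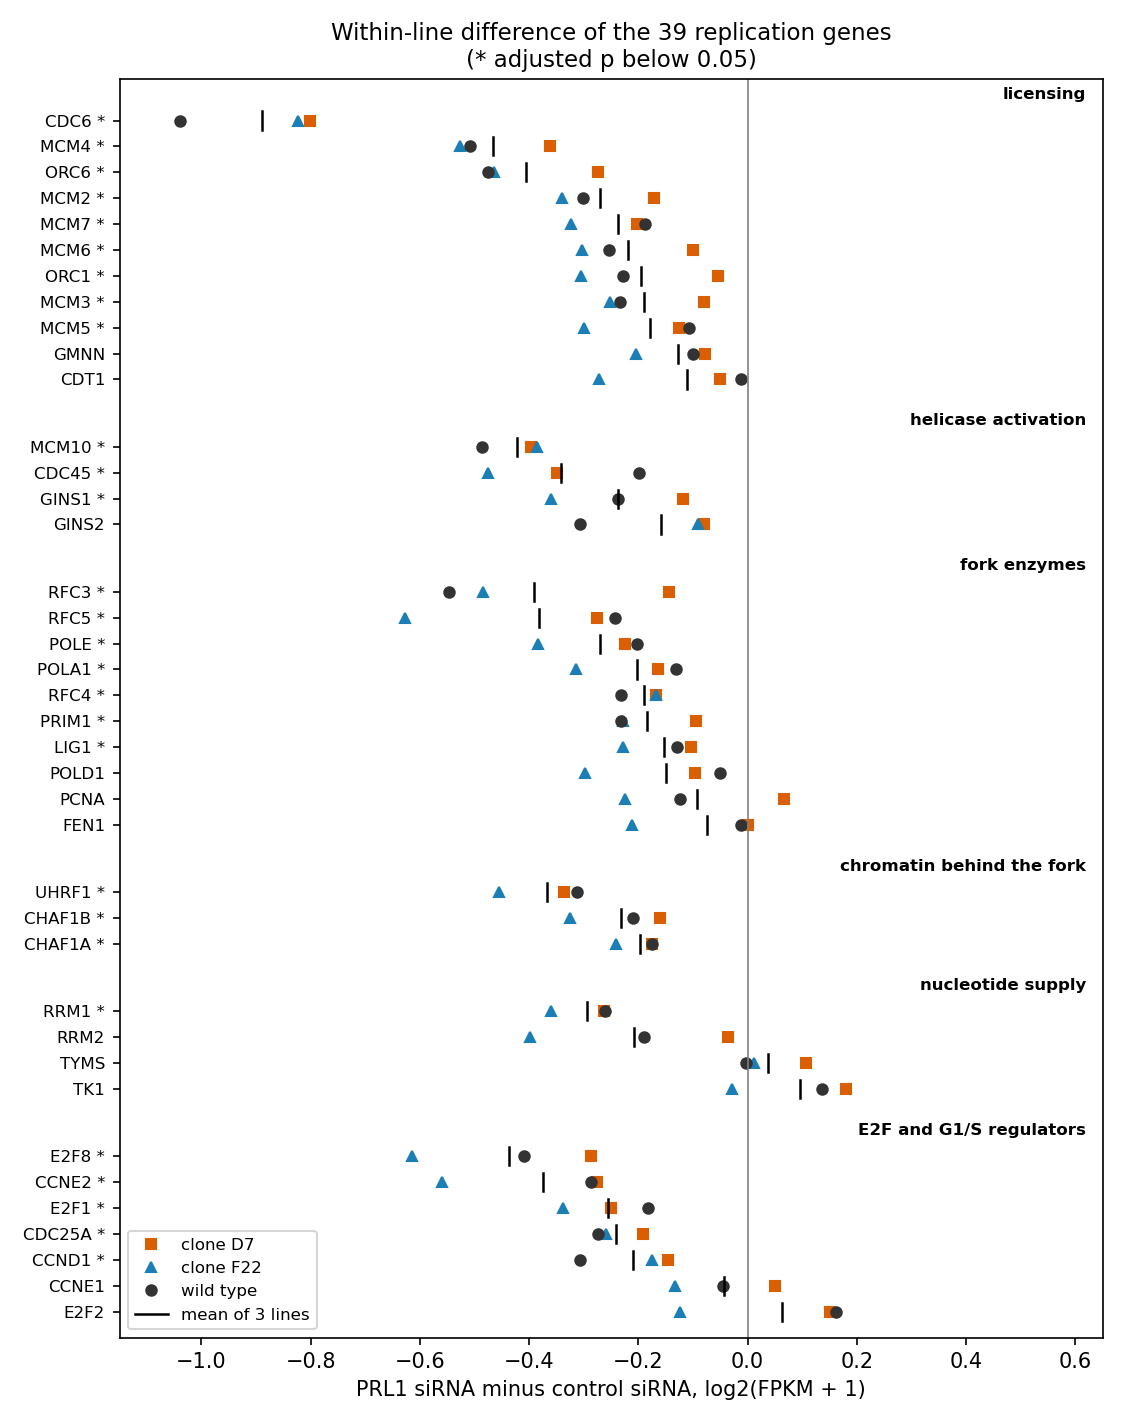
Difference between PRL1 siRNA and control siRNA in log2(FPKM + 1) (horizontal axis) for the 39 members, grouped by role and ordered by mean, with 1 symbol per line, a bar at the mean of 3 lines and an asterisk at members with an adjusted p under 0.05. CDC6 lies farthest to the left in all 3 lines, most members lie between -0.5 and 0, and TYMS, TK1, E2F2, CCNE1, PCNA and FEN1 have lines on both sides of 0.

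Genes that activate the loaded helicase were lower. MCM10, a scaffold that helps the active helicase to form, was at 12.7, 10.2 and 9.99 FPKM after PRL1 siRNA in D7, F22 and wild type, against 17.0, 13.7 and 14.4 FPKM after control siRNA. Treated libraries lay below all control libraries, and MCM10 fell by 0.42 ± 0.04 on the log2 scale (SE, limma adjusted p = 0.00226). CDC45, a subunit of the active helicase, was at 16.6, 13.9 and 15.1 FPKM against 21.5, 19.7 and 17.4 FPKM and also did not overlap. It fell by 0.34 ± 0.06 (adjusted p = 0.00977). Of the GINS subunits, GINS1 fell by 0.24 ± 0.05 (adjusted p = 0.0206), and GINS2 was at -0.16 ± 0.06 (adjusted p = 0.0792). GINS2 had a log2 difference of -0.31 in wild type and of -0.08 and -0.09 in D7 and F22. MCM10 also fell most in wild type, at -0.49 against -0.40 and -0.39 in D7 and F22. CDC45 went the other way, at -0.20 in wild type against -0.35 and -0.48.

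Among the members that are enzymes of the replication fork, RFC3 and RFC5 of the clamp loader fell most. RFC3, a subunit of replication factor C, which places the PCNA clamp on DNA, was at 21.2, 15.2 and 16.1 FPKM after PRL1 siRNA in D7, F22 and wild type, against 23.5, 21.7 and 24.0 FPKM after control siRNA. RFC5, another subunit, was at 99.0, 84.2 and 91.2 FPKM against 120.1, 131 and 108 FPKM. Neither gene's treatments overlapped, and the lines differed in size: RFC3 had log2 differences of -0.14 in D7, -0.48 in F22 and -0.55 in wild type, while RFC5 had -0.28, -0.63 and -0.24. The mean log2 fold changes were -0.39 ± 0.08 and -0.38 ± 0.08 (SE, limma adjusted p = 0.0167 and 0.0161). RFC4 fell by 0.19 ± 0.04 (adjusted p = 0.0121), less than RFC3 and RFC5. The other subunit genes RFC1 and RFC2, which are not members, were at -0.13 and -0.12 and were not called (adjusted p = 0.0579 and 0.0563).

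The polymerase genes moved less than RFC3 and RFC5. POLE, the catalytic subunit of the leading-strand polymerase, fell by 0.27 ± 0.05 on the log2 scale (SE, limma adjusted p = 0.0115). POLA1 and PRIM1, which belong to the polymerase and primase that start new strands, fell by 0.20 ± 0.05 and 0.18 ± 0.04 (adjusted p = 0.0242 and 0.0243), and the ligase gene LIG1 fell by 0.15 ± 0.04 (adjusted p = 0.0347). POLD1, the catalytic subunit of the lagging-strand polymerase, was at -0.15 ± 0.06 (adjusted p = 0.106).

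The clamp itself and the flap nuclease did not pass. PCNA was at 49.5, 42.8 and 36.3 FPKM after PRL1 siRNA in D7, F22 and wild type, against 47.2, 50.2 and 39.6 FPKM after control siRNA, with D7 higher and the other lines lower. FEN1, which trims Okazaki fragments, was at 32.0, 25.9 and 29.4 FPKM against 31.9, 30.2 and 29.6 FPKM. F22 was the line in which FEN1 differed. The log2 fold changes were -0.09 for PCNA (95% interval -0.25 to 0.06) and -0.07 for FEN1 (-0.21 to 0.06). Of 10 fork genes, 7 fell and 3 did not pass, with a median of -0.19, where 21.7% of all genes tested were called lower.

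All 3 genes of chromatin assembly and maintenance behind the fork fell, where 21.7% of all genes tested were called lower. UHRF1, which helps to copy DNA methylation onto new strands, was at 20.1, 16.2 and 16.6 FPKM after PRL1 siRNA in D7, F22 and wild type, against 25.6, 22.6 and 20.9 FPKM after control siRNA. No treated library reached the lowest control, and UHRF1 fell by 0.37 ± 0.04 on the log2 scale (SE, limma adjusted p = 0.00352). CHAF1A and CHAF1B, subunits of the histone chaperone CAF-1, fell by 0.20 ± 0.04 and 0.23 ± 0.05 (adjusted p = 0.0129 and 0.0163).

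In nucleotide supply 1 of 4 genes fell and the median log2 fold change was -0.08, beside 9 of 11 genes and -0.22 in licensing. The count for nucleotide supply is near the 21.7% of all genes tested that were called lower (27% among genes of at least 5 FPKM). The difference between these roles was not tested. RRM1, the large subunit of ribonucleotide reductase, was at 74.4, 59.2 and 65.0 FPKM after PRL1 siRNA in D7, F22 and wild type, against 89.4, 76.2 and 78.1 FPKM after control siRNA. It fell by 0.29 ± 0.04 on the log2 scale (SE, limma adjusted p = 0.00414), to 83.2%, 77.6% and 83.2% of control, and its treatments did not overlap. RRM2, the small subunit that is limiting in S phase and the most abundant member, was at 318, 323 and 322 FPKM against 326, 426 and 368 FPKM. The treated RRM2 libraries were nearly equal at 321 ± 2.87 FPKM (SD, n = 3), whereas the controls spread over 373 ± 50.3 FPKM. The log2 fold change of RRM2 was -0.21 ± 0.07 and did not pass (adjusted p = 0.0628).

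The enzymes that make thymidine nucleotides did not pass in either direction. TYMS, thymidylate synthase, was at 75.2, 66.0 and 61.7 FPKM after PRL1 siRNA in D7, F22 and wild type, against 69.8, 65.5 and 61.8 FPKM after control siRNA. TK1, the salvage kinase, was at 102, 93.5 and 72.2 FPKM against 89.9, 95.4 and 65.6 FPKM. The treated and control libraries of both genes overlapped throughout. The log2 fold changes were 0.04 for TYMS (95% interval -0.06 to 0.13) and 0.10 for TK1 (-0.03 to 0.22), with limma adjusted p = 0.462 and 0.176.

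Regulators at the G1 to S boundary were divided. E2F8, a repressor among the E2F factors, was at 5.48, 2.96 and 4.95 FPKM after PRL1 siRNA in D7, F22 and wild type, against 6.90, 5.07 and 6.91 FPKM after control siRNA. It was lower in each line, the treatments overlapped because F22 was low under both, and E2F8 fell by 0.44 ± 0.07 on the log2 scale (SE, limma adjusted p = 0.00863). The activator E2F1 was at 10.7, 8.87 and 9.02 FPKM against 12.9, 11.5 and 10.4 FPKM and fell by 0.26 ± 0.05 (adjusted p = 0.0114). E2F2, also an activator and the member with the lowest level, was at 4.47, 2.28 and 3.06 FPKM against 3.92, 2.57 and 2.63 FPKM, higher in D7 and wild type and lower in F22 (log2 fold change 0.06, 95% interval -0.13 to 0.26).

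The E-type cyclin genes did not give the same call. CCNE2 was at 4.55, 3.87 and 3.42 FPKM after PRL1 siRNA in D7, F22 and wild type, against 5.73, 6.18 and 4.39 FPKM after control siRNA. It was lower in each line and fell by 0.37 ± 0.07 on the log2 scale (SE, limma adjusted p = 0.0133). CCNE1 was at 7.77, 7.54 and 6.24 FPKM against 7.47, 8.37 and 6.47 FPKM, with overlap and no common direction (log2 fold change -0.04, 95% interval -0.17 to 0.09). CDC25A, the phosphatase that activates CDK2, fell by 0.24 ± 0.04 (adjusted p = 0.00863). CCND1, which encodes cyclin D1, was at 30.0, 28.5 and 14.5 FPKM against 33.3, 32.4 and 18.2 FPKM. It fell by 0.21 ± 0.05 (adjusted p = 0.0186, and 0.761 without the line), a difference much smaller than the gap between the clones and wild type. Of the 7 regulators 5 fell, where 21.7% of all genes tested were called lower.

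**Figure D3:**
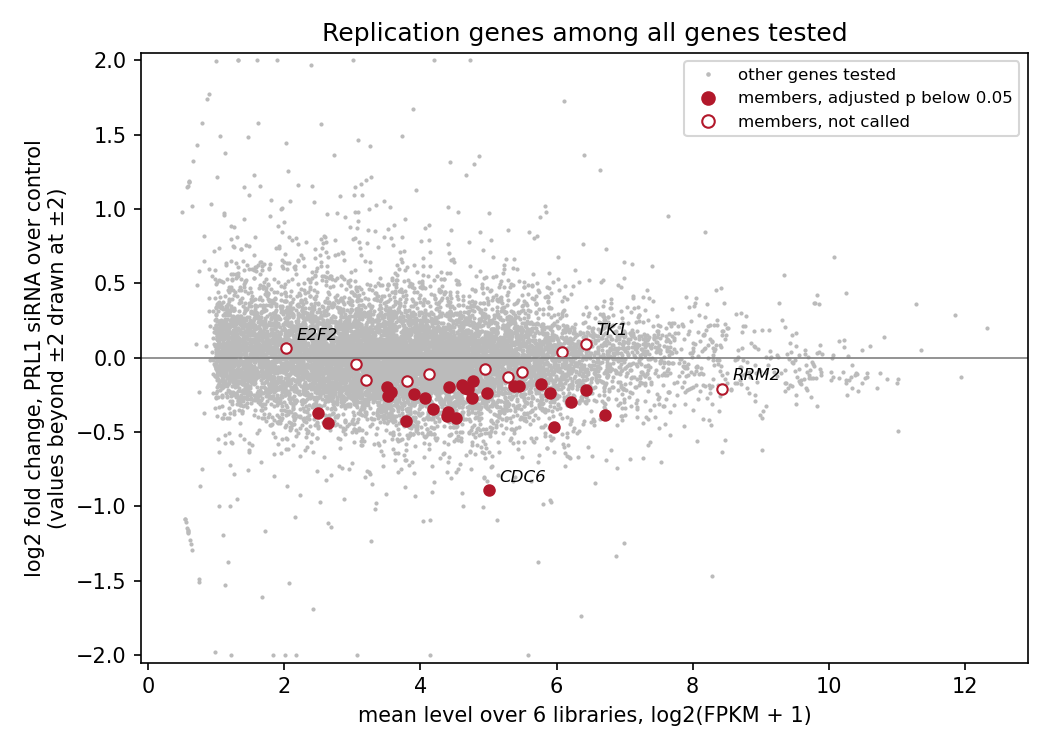
Mean level over 6 libraries in log2(FPKM + 1) (horizontal axis) and log2 fold change of PRL1 siRNA over control siRNA (vertical axis, values beyond 2 in size drawn at the edge) for all 12125 genes tested, with the 39 members in red, filled where the adjusted p was under 0.05. Members cover the middle and upper part of the level range and lie mostly below 0, with CDC6 lowest among them at -0.89.

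The 3 lines shared the direction but not the size of the differences. Of 39 members, 33 were lower after PRL1 siRNA in D7, 38 in F22 and 37 in wild type, where 52.3%, 53.6% and 50.7% of all genes were lower. The members' median log2 difference was -0.15 in D7, -0.31 in F22 and -0.23 in wild type, and the medians of all genes were -0.01, -0.02 and -0.0038. F22 gave the lowest value of the 3 lines in 29 members, wild type in 10 and D7 in 0. In all, 33 members were lower in each of the 3 lines, against 35.8% of all genes, and 0 were higher in each, against 31.6%. Treated libraries lay below all control libraries in 12 members, against 16.2% of all genes, and above all of them in 0, against 12.6%.

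The members kept much of their order between lines. Across the 39 members, which are not independent of each other, Spearman's rho of the log2 differences was 0.71 between wild type and D7, 0.64 between wild type and F22, and 0.78 between D7 and F22. Without CDC6 the values were 0.68, 0.61 and 0.76. Lines do not share control libraries, but the libraries of a line share their cells. Depth was not shared within a line, and the treated library had the lower estimate in every line.

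Knockdown effects in the clones and in wild type were compared directly, as the difference of the 2 effects. Of the 39 members 0 passed, as did 0 of 12125 genes (limma, 4 groups), and 136 genes (1.12%) and 0 members had an unadjusted p under 0.05. With the clone as a block, 1 of 12125 genes (0.00825%) and 0 members passed, and 2 members, CDC6 and GINS2, had an unadjusted p under 0.05 (10.1% of all genes did). For CDC6 the clones' effect minus that of wild type was 0.23 ± 0.24 (SE, log2 scale, no block). A positive value means a smaller fall in the clones. With the clone as a block the SE of this difference was 0.06, and it was not called. A lone wild-type library per treatment limits this test, since it was assumed to vary like the clones.

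**Figure D4:**
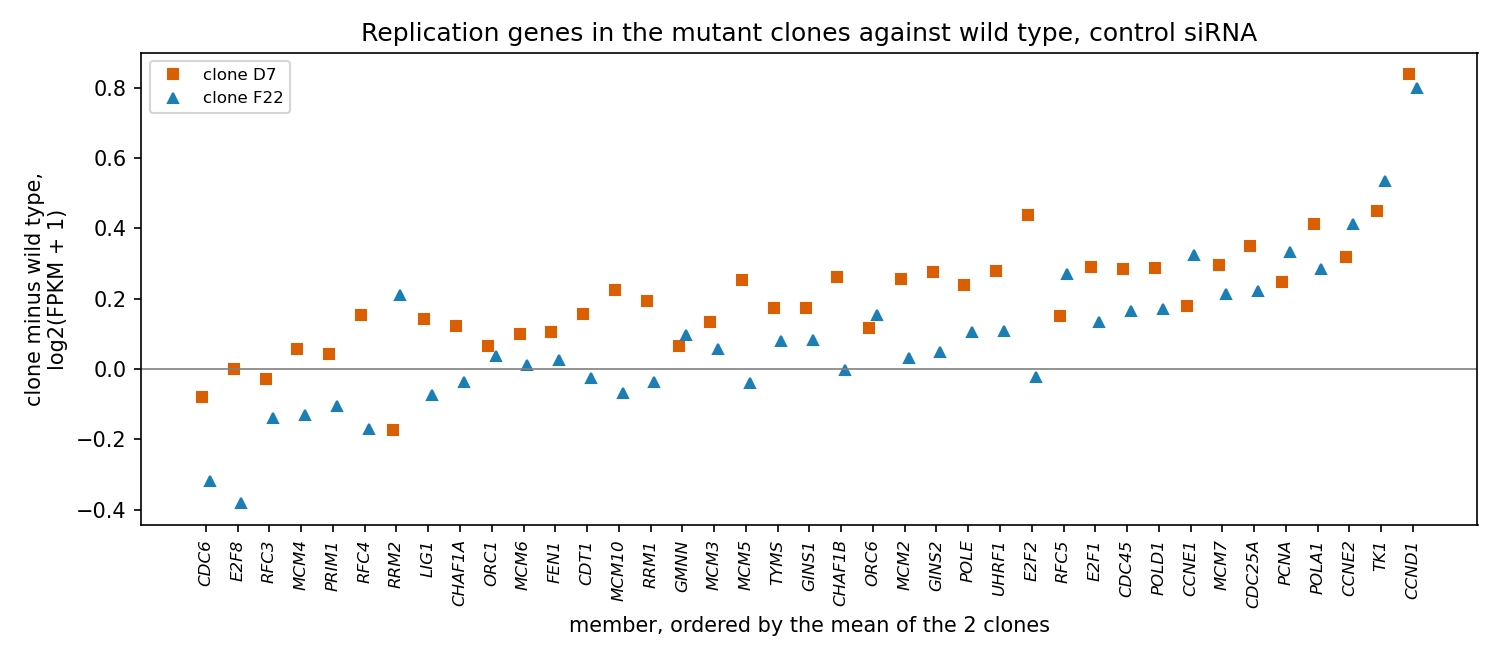
Difference between each mutant clone and wild type under control siRNA in log2(FPKM + 1) (vertical axis) for the 39 members ordered by their mean, with squares for D7 and triangles for F22. CCND1, at 0.84 and 0.80, and TK1, at 0.45 and 0.53, lie highest in both clones, and CDC6, at -0.08 and -0.32, lies lowest on average.

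Under control siRNA the replication genes showed no called difference between the clones and wild type. Of 39 members 0 passed (limma, 4 groups, 0 of 12125 genes called), and 3 of 39 members had an unadjusted p under 0.05, against 13.5% of all genes. Both clones lay above wild type in 24 members and below it in 3, against 43.6% and 29.9% of all genes, and the median log2 difference was 0.13 over the members and 0.03 over all genes.

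The members with the widest gap were CCND1, TK1 and CCNE2. CCND1 was at 33.3 and 32.4 FPKM in D7 and F22 against 18.2 FPKM in wild type under control siRNA, a log2 difference of 0.82 ± 0.07 (SE, 2 clones against 1 library, limma unadjusted p = 0.000373, adjusted p = 0.217). After PRL1 siRNA the clones were again higher, by 1.00 in D7 and 0.93 in F22. TK1 was at 89.9 and 95.4 FPKM in D7 and F22 against 65.6 FPKM in wild type (0.49 ± 0.09, adjusted p = 0.256), and CCNE2 was at 5.73 and 6.18 FPKM against 4.39 FPKM (0.37 ± 0.13, adjusted p = 0.363). CDC6 had 44.2 and 37.3 FPKM in D7 and F22 against 46.8 FPKM in wild type (-0.20 ± 0.17, adjusted p = 0.656). None of these differences passed, and each clone shared its direction with the other.

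Further genes of replication were taken from a list of 78 that are not members. Of these, DCTD and CDKN2A were not matched in the tables, CDKN1C was under 1 FPKM on average, and 75 were tested. After PRL1 siRNA 35 fell, 3 rose and 37 did not pass, where 21.7% of all genes tested were called lower and 17.6% higher. Their median log2 fold change was -0.13, against -0.01 over all genes. Without the line as a term 2 of these 38 calls held, RNASEH2B and CDKN2B. In that fit 416 of all 12125 genes were called, 266 lower and 150 higher. The largest fall was in RNASEH2B, a subunit of the enzyme that removes ribonucleotides from DNA, at 9.20, 8.36 and 8.70 FPKM after PRL1 siRNA in D7, F22 and wild type against 15.2, 13.1 and 16.0 FPKM after control siRNA. RNASEH2B fell by 0.69 ± 0.05 on the log2 scale (SE, limma adjusted p = 0.00162), and its treatments did not overlap.

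The next falls by size were in 7 genes of different roles. CCND2, a D-type cyclin gene, fell by 0.48 ± 0.05, CCNA2, the S phase cyclin, by 0.47 ± 0.04, and the activator E2F3 by 0.46 ± 0.05 (SE, limma adjusted p = 0.00199, 0.00198 and 0.00276). The nuclease gene DNA2 fell by 0.43 ± 0.05, SKP2, which directs the degradation of p27, by 0.42 ± 0.05, DBF4, the activator of the CDC7 kinase, by 0.40 ± 0.04, and the checkpoint kinase gene CHEK1 by 0.40 ± 0.04 (adjusted p = 0.00332, 0.00332, 0.00263 and 0.0029). By role, 7 of 9 further genes of helicase activation fell, 8 of 17 of the fork, 4 of 7 of fork protection, 3 of 9 of nucleotide supply, 1 of 7 of licensing and 0 of 5 of chromatin. Among 21 further regulators 12 fell and 2 rose. Against the 21.7% of all genes called lower, the counts for nucleotide supply, licensing and chromatin are near or under that share.

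The genes that rose included inhibitors of cyclin-dependent kinases. CDKN2B, which encodes the CDK4 and CDK6 inhibitor p15, was at 20.6, 16.4 and 30.4 FPKM after PRL1 siRNA in D7, F22 and wild type, against 10.3, 8.80 and 9.13 FPKM after control siRNA. Every treated library lay above every control, and CDKN2B rose by 1.13 ± 0.16 on the log2 scale (SE, limma adjusted p = 0.00478, and 0.0473 without the line). The treated level of CDKN2B was 200%, 186% and 332.5% of control in D7, F22 and wild type. Its difference in effect between clones and wild type was not called (adjusted p = 0.269, limma with the clone as block). CDKN1A, which encodes p21, was at 71.8, 123 and 49.99 FPKM against 48.1, 113 and 35.9 FPKM, with the F22 libraries far above the others under both treatments. CDKN1A rose by 0.38 ± 0.09 (adjusted p = 0.0213), a call that ended without the line (adjusted p = 0.691) and in the 2 clones alone with the clone as block (adjusted p = 0.0881). MCM9, a helicase of DNA repair, rose by 0.27 ± 0.06 (adjusted p = 0.0186). CDKN1B, which encodes p27, was at 0.08 ± 0.04 (adjusted p = 0.184), and the inhibitor gene CDKN2C was at 0.11 ± 0.06 (adjusted p = 0.188). Neither was called.

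Some of these values may include fragments of neighbours. In the RefSeq assembly, 17 of the 39 members overlap another annotated gene, and whether the counting used strand is not given. CCNE2 overlaps INTS8, at 19.2 to 25.0 FPKM, RFC4 overlaps EIF4A2, at 116 to 137 FPKM, FEN1 overlaps TMEM258, at 131 to 149.7 FPKM, and CDC45 overlaps DNAJA1, at 21.3 to 27.2 FPKM. In every library these 4 neighbours had more FPKM than the member they overlap, apart from CDC45 in D7 under control siRNA (21.5 against 21.3 FPKM). CDC6, MCM4, TYMS, TK1 and CCND1 overlap no gene listed above 0.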

How the data were processed

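Libraries came from a stranded TruSeq mRNA kit, on RNA from a miRNeasy extraction, per the labels' protocols. The authors deposited FPKM values for each gene symbol in each library. HISAT2 2.1.0, Cufflinks 2.2.1 and Cuffdiff are named in the submitters' processing notes. Which genome build and annotation were used, and whether strand was, is not given in the sources used here. The number of fragments is unknown, so depth is relative only, taken from the commonest ratio between libraries among genes under 0.1 FPKM, and no counts were rebuilt. Of 41401 symbols, 38797 matched RefSeq (UU_Cfam_GSD_1.0, used for names and neighbours only).

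The tests used limma 3.58.1 (R 4.3.3) on genes averaging 1 FPKM or more over the libraries. Values entered as log2(FPKM + 1), which understates fold changes of low genes, with an intensity trend and Benjamini-Hochberg adjustment over all genes at 0.05. The model for knockdown had line and treatment as terms (6 libraries, 2 residual degrees of freedom, prior 3.585). Line pairs the libraries because they come from the same cells, and deviations of the clones from group means correlated at r = 0.595 over genes. Clones were compared with wild type in a 4-group model. The procedure was tested on simulated libraries with independent noise, which cannot show effects shared by the libraries of a treatment. Members and lists were chosen with earlier results of these data known. Values in every library are given for called members with a log2 fold change of at least 0.4 in size, for CCND1, for members without a common direction, for at least 1 member of each role, and for others chosen after their values were seen. Of further genes, at most 8 per direction are named by size, besides CDKN1B, CDKN2C, RFC1 and RFC2, chosen after their values were seen. A further leukocyte marker is not reported here.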

Additional observations from a re-analysis of the deposited data

How the results depend on the processing

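The count of 28 members called after PRL1 siRNA became 3 with no filter on low values, 1 with no replicate block and 0 in the clones alone without a block, and without 1 library it ranged from 9 to 21. With the clone as replicate block in the 2 clones alone it was 21, where 4037 of all 12125 genes were called. For all genes the count of 4762 became 1179 with no filter, 416 with no replicate block and 0 in the clones without a block (2575 at an unadjusted p under 0.05), and ranged from 1721 to 4095 without 1 library. For the further replication genes the count of 38 became 14, 2 and 0, and ranged from 17 to 34. A pseudocount of 0.1, a minimum of 5 FPKM, no intensity trend and median rescaling gave 25 to 29 members. In the same order, these settings called 4842, 4195 (of 9054 tested), 4502 and 4781 of all genes. Median rescaling gave 2367 genes lower and 2414 higher, against 2632 and 2130. The members' median stayed between -0.26 and -0.19 in all fits, and no called member changed direction in any of them. Leaving out a library removes a line and a residual degree of freedom. Fewer genes pass with no filter, where 27931 are tested; the cause was not tested. Clones against wild type, and the difference of knockdown effects, had 0 members called under every setting run; they could not be fitted without a wild-type library. Depth in fragments is unknown, so no limit from counting was set.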
